A study of Homo sapiens with 9 samples.

Results

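The genes described here encode the proteins of the mitochondrial ribosome. They were taken by name: every protein-coding gene whose symbol is MRPL or MRPS followed by a number, plus DAP3 and PTCD3, without pseudogenes, matched to the count files by numeric gene identifier. This gave 79 genes of the 28395 listed per library, on 21 chromosomes. RNA-seq was done on wild-type Caco-2 cells. This established line comes from a human colon carcinoma and takes on features of enterocytes, the absorptive cells of the gut, when it differentiates. Differentiated cells stood for 24 h in regular medium (control), in medium with 10 µM carmine, or in medium with 20 µM carminic acid, with 3 libraries per group, lettered A, B and C. Carminic acid is a red anthraquinone pigment made by cochineal insects, and carmine is the lake it forms with aluminium. The dyes were given at different concentrations, so compound and concentration cannot be told apart in any comparison between them. Whether the samples of a group were grown separately is not stated in the labels, and the p-values therefore reflect the spread among these samples alone, which may be technical.

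The mitochondrial ribosome, or mitoribosome, translates the mRNAs that are transcribed from mitochondrial DNA, which in human cells all encode subunits of oxidative phosphorylation complexes. Its rRNAs come from mitochondrial DNA, whereas all of its proteins are encoded in the nucleus, made in the cytosol and imported. Some of these proteins descend from bacterial ribosomal proteins and others have no bacterial counterpart. The large subunit forms the peptide bond and holds the exit tunnel, and the small subunit binds the mRNA and decodes it.

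Of the 79 genes, 51 encode large subunit proteins and 28 small subunit proteins, with MRPS30 and MRPS18A counted in the large subunit, where their proteins sit. After a filter on low counts 77 were tested. Levels are given in CPM, the count of a gene relative to the total counts of its library, with the totals adjusted by TMM factors. The tested members ranged from 0.459 to 179 CPM on average over the 9 libraries, with a median of 42.0 CPM, and 75 of them lay above 10 CPM. Per kilobase of transcript, the scale on which genes can be compared with each other, MRPL10 was the highest with 110 CPM per kilobase. MRPL10 anchors the stalk of the large subunit to which translation factors bind. MRPS26, a small subunit protein, followed with 106 CPM per kilobase, and MRPL47, a large subunit protein, with 96.0. The median member stood at 32.7 CPM per kilobase.

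At the other end, 4 members were nearly empty in every group. MRPS18B, a small subunit protein and 1 of 3 MRPS18 paralogs, had 6 counts in all 9 libraries together, and MRPL23, a large subunit protein, had 12; neither was tested. MRPL45, whose protein lies beside the exit tunnel and helps to hold the ribosome at the inner membrane, had 233 counts in all, while its listed pseudogene MRPL45P2 had 2469. MRPS24 had 235 counts, and the read-through gene URGCP-MRPS24 that overlaps it was listed at 0. The 14 protein-coding neighbours of MRPS18B within 150 kb also had only 0 to 420 counts over the 9 libraries. How reads from near-identical or overlapping genes were assigned is not given in the sources used here, and its part in these low values was not tested. Over the whole set, 19 members overlap another protein-coding gene, and 42 members have numbered pseudogenes, 102 in all, of which 3 were listed in the files.

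The promoters of 4 members that recur in the results are shown here, because their mRNAs had the smallest p-values between the dyes and because mitoribosomal protein promoters share short motifs. They are RefSeq sequences of GRCh38.p14, all on the plus strand, from 250 bases before to 30 bases after the annotated start. Capitals mark matches, on either strand, to the ETS core (CCGGAAG), the NRF1 core (TGCGCA), the YY1 core (ATGGCGG) and the GC box (GGGCGG). The windows are chr14:22829637-22829916 for MRPL52, chr12:93467264-93467543 for MRPL42, chr12:27710582-27710861 for MRPS35 and chr2:99180934-99181213 for MRPL30.
MRPL52: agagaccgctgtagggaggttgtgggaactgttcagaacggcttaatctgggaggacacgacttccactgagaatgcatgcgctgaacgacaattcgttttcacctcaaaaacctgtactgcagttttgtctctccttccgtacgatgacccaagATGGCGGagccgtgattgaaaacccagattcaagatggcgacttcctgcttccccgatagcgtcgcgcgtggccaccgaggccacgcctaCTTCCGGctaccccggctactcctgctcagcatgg
MRPL42: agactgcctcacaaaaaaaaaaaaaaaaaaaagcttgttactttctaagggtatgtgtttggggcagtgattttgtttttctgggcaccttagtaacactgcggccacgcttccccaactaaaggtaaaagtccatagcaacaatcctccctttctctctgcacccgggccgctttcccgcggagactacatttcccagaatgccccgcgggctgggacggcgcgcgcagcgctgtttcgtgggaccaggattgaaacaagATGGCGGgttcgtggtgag
MRPS35: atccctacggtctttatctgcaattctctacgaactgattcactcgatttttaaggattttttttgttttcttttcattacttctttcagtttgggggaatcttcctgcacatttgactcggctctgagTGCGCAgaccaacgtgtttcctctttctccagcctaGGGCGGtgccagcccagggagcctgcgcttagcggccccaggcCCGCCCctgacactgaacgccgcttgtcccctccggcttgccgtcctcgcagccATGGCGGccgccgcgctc
MRPL30: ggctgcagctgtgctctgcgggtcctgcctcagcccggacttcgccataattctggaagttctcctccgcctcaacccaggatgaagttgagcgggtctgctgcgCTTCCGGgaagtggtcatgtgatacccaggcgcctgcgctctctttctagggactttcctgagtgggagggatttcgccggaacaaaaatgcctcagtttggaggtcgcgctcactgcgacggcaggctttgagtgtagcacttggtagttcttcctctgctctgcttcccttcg

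Positions are those of a match's leftmost base, counted from the start as 1 and from the base before it as -1. The MRPL52 window held an ETS core at -5, on the minus strand, and a YY1 core at -95. In MRPL42 a YY1 core began at base 12. MRPS35 held an NRF1 core at -121, GC boxes at -85 and -42, and a YY1 core at base 13. MRPL30 held 1 match, an ETS core on the minus strand at -145. Each match is a stretch of letters and not a shown binding site, and the YY1 core holds the letters of a start codon.

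The reference table held 88 promoters of 300 bases for 71 of the members. The ETS core lay in 37.5% of these promoters, against 12.8% of 22180 promoters of protein-coding genes and 10.3% of all 35093 promoters. The YY1 core lay in 29.6%, against 6.99% and 5.55%. The NRF1 core lay in 19.3%, against 9.89% and 8.24%, and the GC box in 61.4%, against 56.3% and 44.9%. ETS, NRF1 and YY1 factors are known to act at many nuclear genes of mitochondrial proteins. The members with an ETS core, 30 of those tested, had a median log2 fold change of 0.13 under carmine, and the 40 without had 0.10. For the YY1 core the medians were 0.10 in the 24 members with it and 0.12 in the 46 without.

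Carmine was compared with control first. The log2 fold changes of the mitoribosomal protein mRNAs were small and lay mostly on the positive side, above 0 in 69 of 77 tested members, against 51.7% of all 16017 genes tested. The median of the members was 0.12 on the log2 scale, from -0.09 to 0.36, beside 0.01 for all genes tested. No member passed an adjusted p of 0.05 in edgeR's quasi-likelihood test, nor did any gene (percent called 0). DESeq2 (0.573% of 13793 genes called) and limma-voom with quality weights (0.268% of 16017) also called 0 members. At an unadjusted p under 0.05 there were 12 members, all with positive values, where 5.38% of all genes tested had positive and 5.61% negative values at that level. The groups did not overlap in 9 members, all with carmine above control (7.32% of all genes tested), and in 0 members with carmine below (7.67%). The 9 include the nearly empty MRPL45 (0.459 CPM), where control B and carmine B held 29 counts each. MRPL45 also had the highest value, 0.36. With bulk RNA, fewer cells of a type and less RNA per cell cannot be told apart.

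The size of the shift differed between the carmine libraries, and the control libraries also differed. The summed level of all members was 3686, 3870 and 3865 CPM in control libraries A, B and C, and 3820, 4179 and 4500 CPM in carmine libraries A, B and C. Carmine A thus lay inside the control range, carmine B above it and carmine C highest. Of the 77 tested members, 57 were lowest in A among the carmine libraries, and 46 were highest in C. Among the control libraries, 47 members were lowest in A. The SD over the carmine libraries was 10.5% of the mean for the median member, against 4.74% in control and 5.17% in carminic acid. Without carmine A the median log2 fold change was 0.18 and 34 members had an unadjusted p under 0.05, all with positive values (10.2% of all genes tested). Without carmine C these values were 0.07 and 7 (5.86%). That count was 3 without control A (3.41%) and 6 without control B (3.08%). It was also 6 with scaling by library size alone (3.35%) and 5 with only the 6 libraries compared (3.38%). With length and GC trends removed it was 18, where 13.2% of all genes tested had positive values at that level, and with the replicate block as well 22 (14.3%). The median stayed positive with each of the 9 libraries left out.

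**Figure D1:**
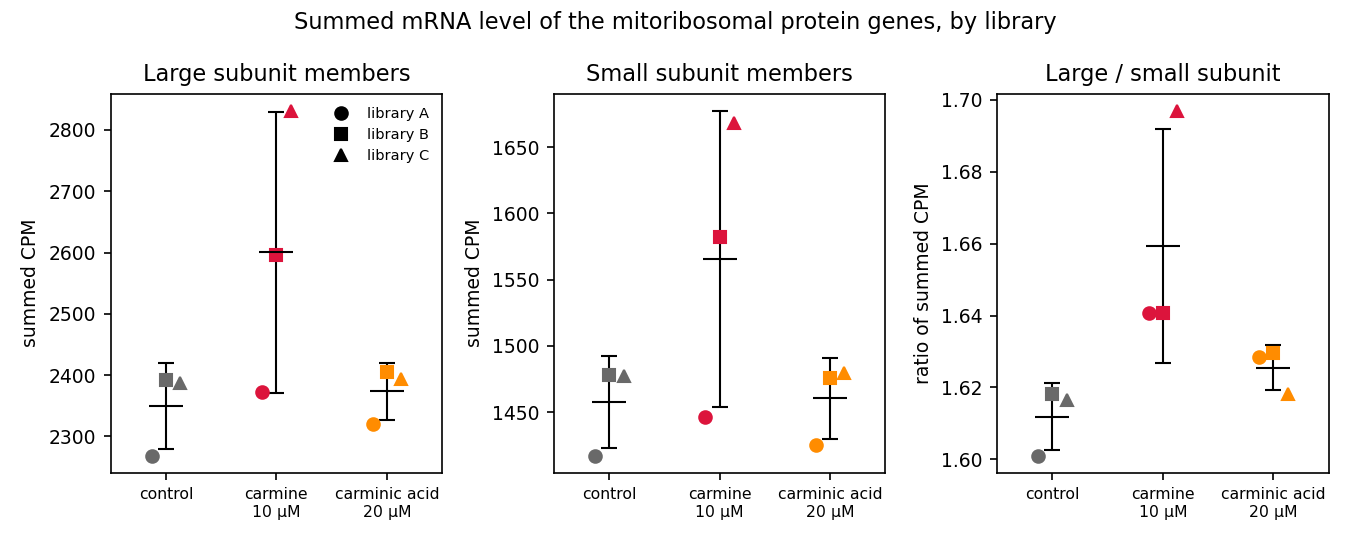
Summed level of the large subunit members (left) and small subunit members (middle), in CPM, and the ratio of the sums (right), for the 9 libraries. Points are libraries A, B and C, and bars give the mean ± SD (n = 3); the axes do not start at 0. Carmine A lies inside the control range for both sums, and the ratio is higher in each carmine library (1.64 to 1.70) than in any control library (1.60 to 1.62). The carminic acid libraries (1.62 to 1.63) also lie above the controls, C only narrowly.

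Both subunits had positive medians. The median log2 fold change under carmine was 0.13 for the large subunit, with 46 of 50 tested members above 0, and 0.11 for the small subunit, with 23 of 27. The ratio of summed large to summed small subunit mRNA was 1.60, 1.62 and 1.62 in control libraries A, B and C and 1.64, 1.64 and 1.70 in the carmine libraries. Members with a bacterial counterpart had a median of 0.11 (40 of 45 above 0), and members without one 0.14 (28 of 31 above 0). MRPL55 was in neither class. The difference between these classes was not tested.

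MRPL52, a large subunit protein without a bacterial counterpart, had the smallest p of the members under carmine. Its level was 16.6, 19.4 and 19.4 CPM in control libraries A, B and C and 20.7, 25.0 and 23.7 CPM in the carmine libraries. Every carmine library lay above every control library, although carmine A exceeded the control maximum only narrowly. The log2 fold change was 0.32 (SE 0.10, 95% interval 0.12 to 0.53, adjusted p = 0.358). MRPL30, the counterpart of bacterial L30, was at 78.6, 82.4 and 87.8 CPM in control and 91.1, 93.7 and 96.9 CPM under carmine. These groups were also apart, with a log2 fold change of 0.18 (SE 0.07, adjusted p = 0.401).

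The proteins of the stalk and its base, which receive the translation factors, had uneven values over the carmine libraries. MRPL12, the stalk protein itself, which is also known to bind mitochondrial RNA polymerase, was at 51.7, 49.7 and 50.5 CPM in control and 50.2, 60.2 and 83.8 CPM under carmine. Carmine A was thus among the controls and carmine C far above them. The log2 fold change was 0.35 (SE 0.14, adjusted p = 0.403), and 0.13 without carmine C. MRPL11, at the stalk base, was at 105, 113 and 114 CPM in control and 113, 132 and 158 CPM under carmine. Its log2 fold change was 0.28 (SE 0.10, adjusted p = 0.384), and 0.15 without carmine C. For MRPL10 the value was 0.16 (SE 0.08), with the groups apart.

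**Figure D2:**
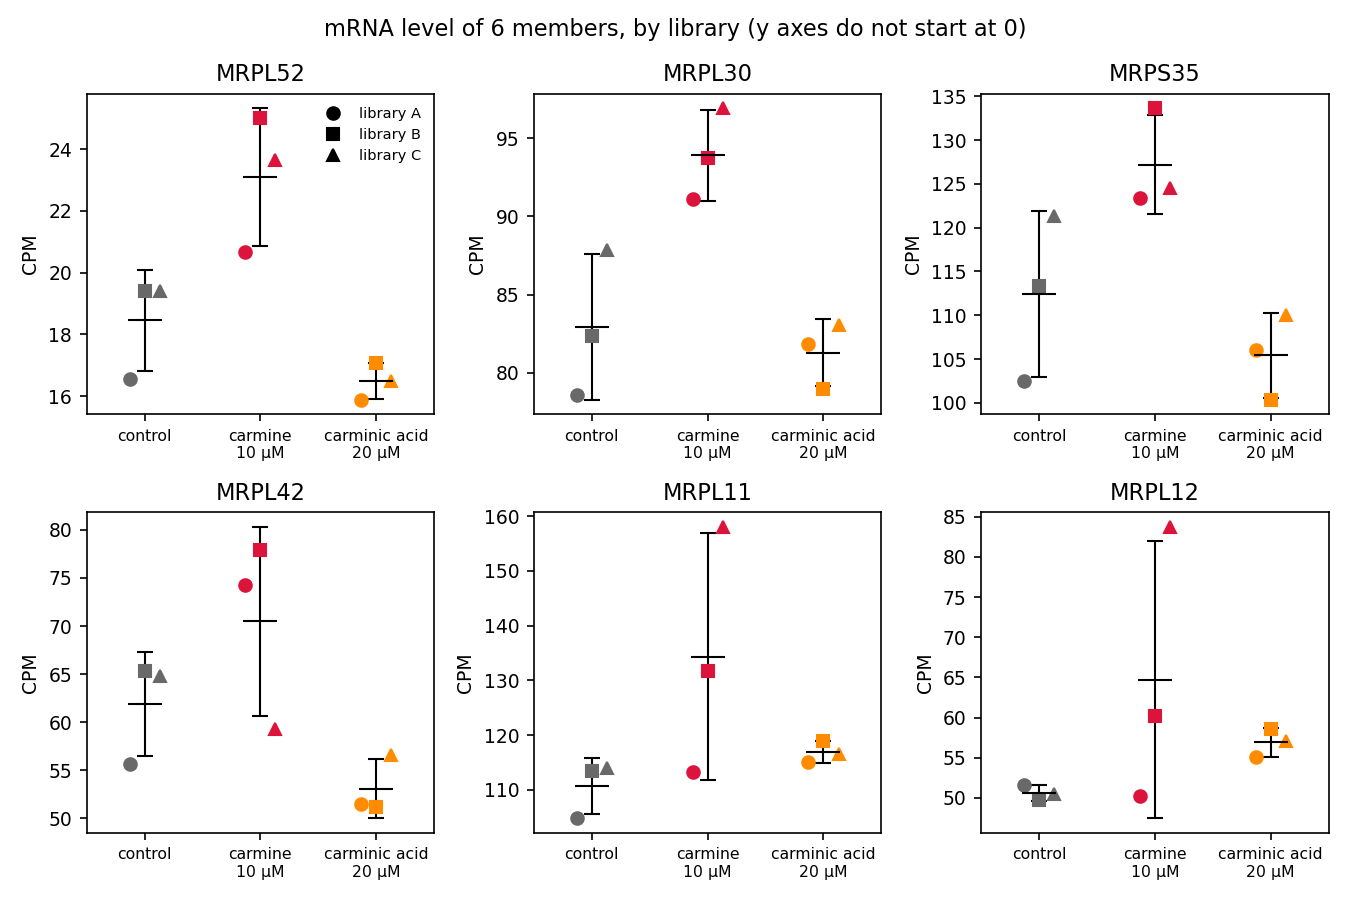
Levels of 6 members in CPM in the 9 libraries. Points are libraries A, B and C, and bars give the mean ± SD (n = 3); the axes do not start at 0. MRPL52, MRPL30 and MRPS35 lie above the controls in all carmine libraries, whereas MRPL11 and MRPL12 overlap the controls through carmine A and MRPL42 through carmine C.

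MRPL54, another large subunit protein, was at 13.6, 12.1 and 13.6 CPM in control and 13.9, 15.7 and 18.9 CPM under carmine (log2 fold change 0.30, SE 0.12, adjusted p = 0.417, and 0.18 without carmine C). All carmine libraries were above the controls, and carmine A by little. The negative values were small. PTCD3, a pentatricopeptide repeat protein of the small subunit that lies at the mRNA entry side, had -0.08 (SE 0.07, adjusted p = 0.682), and MRPS14 had -0.09 (SE 0.09). MRPS31 had -0.08 (SE 0.13), MRPL33 -0.03 (SE 0.09) and MRPS30 -0.01 (SE 0.08). PTCD3 was at 97.1, 100 and 104 CPM in control and 97.3, 100 and 87.6 CPM under carmine, so its negative value came with 1 low library, carmine C.

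**Figure D3:**
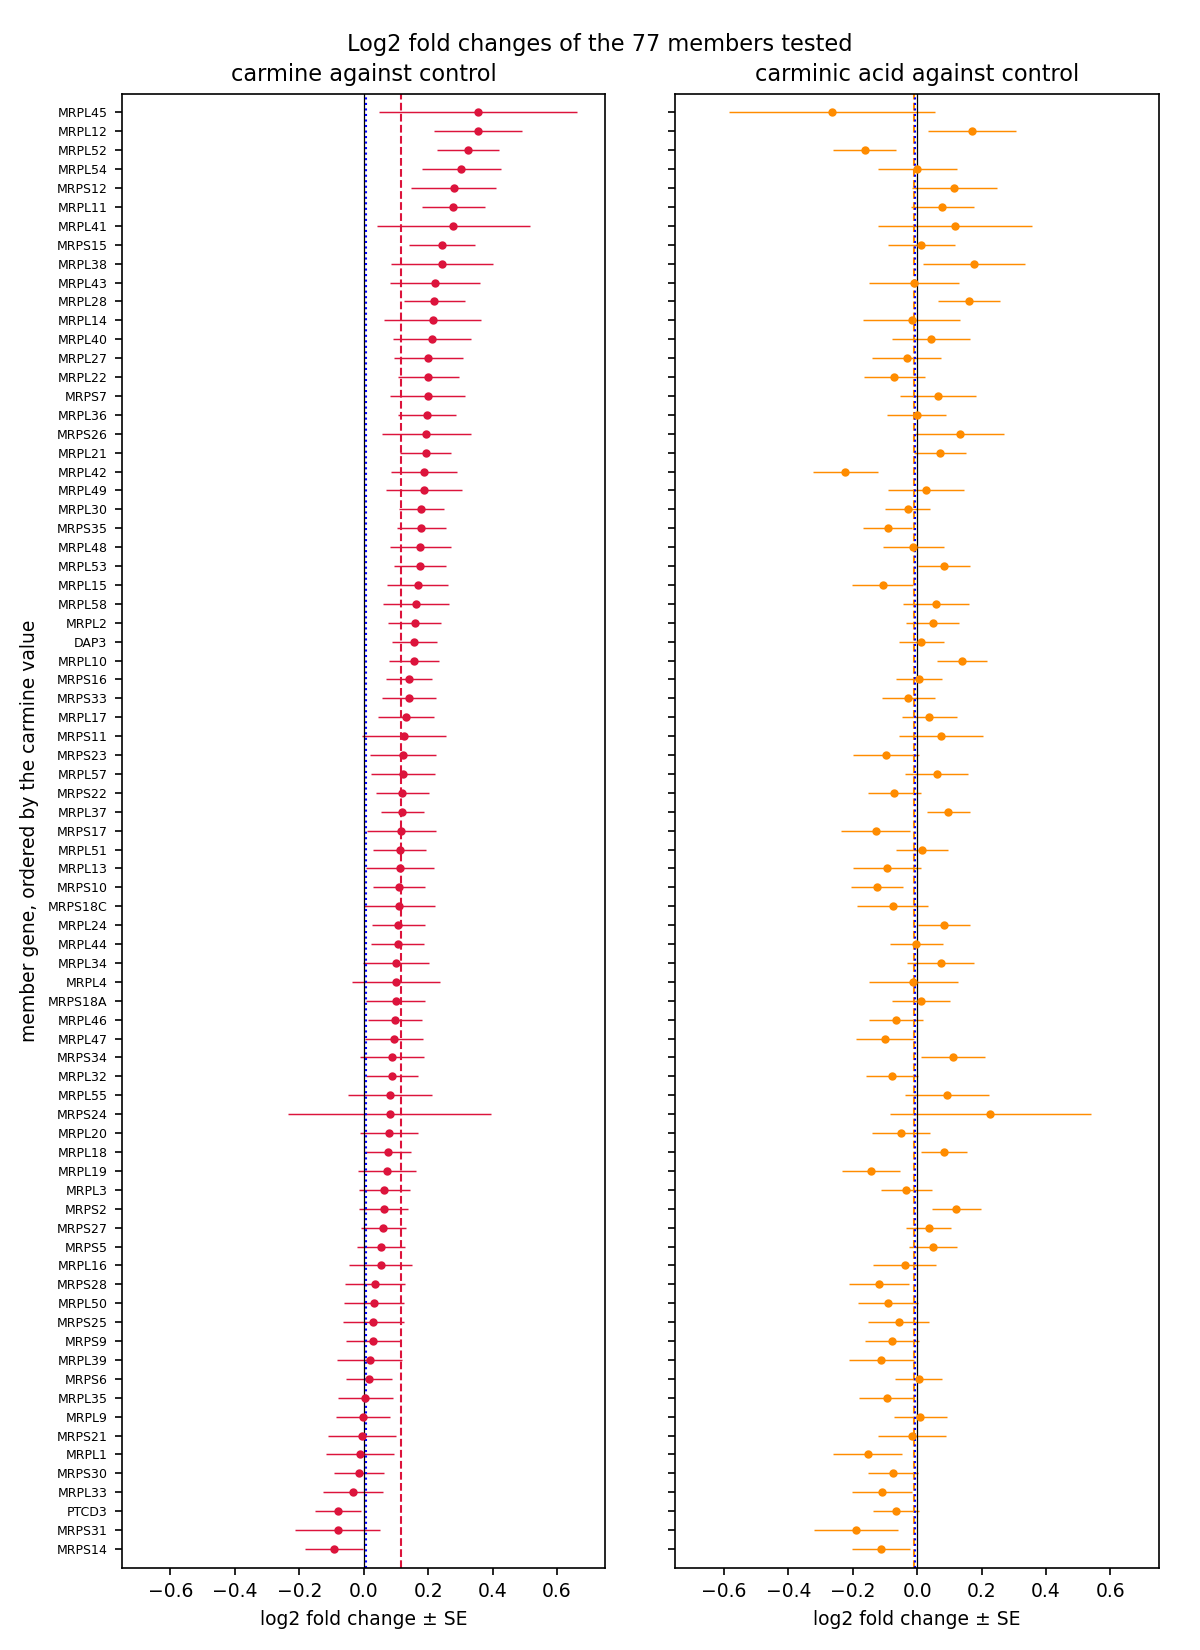
Log2 fold changes ± SE of the 77 members tested, for carmine against control (left) and carminic acid against control (right), in the order of the carmine values. The dashed line is the median of the members and the dotted line the median of all genes tested; under carmine the dashed line lies at 0.12 and 69 points lie above 0, and under carminic acid both lines lie near 0.

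Members with a defined role gave the following values under carmine. DAP3, a GTP-binding protein of the small subunit first described as a mediator of cell death, was at 97.7, 108 and 104 CPM in control and 108, 119 and 119 CPM under carmine. The groups did not overlap, but carmine A (108.3 CPM) lay only narrowly above control B (107.7 CPM). The log2 fold change was 0.16 (SE 0.07, adjusted p = 0.444). MRPS12, at the decoding centre, was at 34.7, 33.3 and 32.5 CPM in control and 34.9, 34.5 and 52.7 CPM under carmine. Carmine A and B lay at or just above the upper end of the control values and carmine C stood alone (log2 fold change 0.28, SE 0.13, adjusted p = 0.454). In MRPL41 carmine C also stood alone, with 22.0, 23.7 and 43.5 CPM under carmine beside 27.9, 24.2 and 21.6 CPM in control. Its carmine A and B values lay within the control range. Its log2 fold change was 0.28 (SE 0.24) with all libraries and -0.10 without carmine C. MRPL58, a peptidyl-tRNA hydrolase that frees stalled ribosomes, had 0.16 (SE 0.10), and MRPL44, which has an RNase III-like fold, 0.11 (SE 0.08).

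Among the remaining role members, MRPS22 had a log2 fold change of 0.12 (SE 0.08) under carmine, MRPS27, another pentatricopeptide repeat protein, 0.06 (SE 0.07), and MRPS34 0.09 (SE 0.10), which was -0.03 without carmine C. Of the MRPS18 paralogs, which encode related proteins at different sites of the ribosome, MRPS18A had 0.10 (SE 0.09) and MRPS18C 0.11 (SE 0.11). MRPL45 had 0.36 (SE 0.31) at 0.459 CPM, where the interval runs from -0.30 to 1.01.

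Carminic acid was compared with the same control libraries. Here the members were spread evenly about 0, with log2 fold changes above 0 in 36 of 77 members and a median of -0.01, beside -0.01 for all genes tested and 48.1% of all genes above 0. No member passed an adjusted p of 0.05 in edgeR (percent called 0), DESeq2 (0.0423% of 18915 genes) or limma-voom (0.212% of 16017). In edgeR 1 member had an unadjusted p under 0.05, with a negative value, where 3.91% of all genes tested had negative and 2.52% positive values at that level. That count was 7 without carmine C, 4 with positive (7.84%) and 3 with negative values (7.48%). It was 2 without control A, with negative values (4.58%). It was 0 without carminic acid B, control B or control C. There 2.53%, 2.48% and 3.03% of all genes had negative values at that level, and 0.708%, 1.13% and 0.671% positive ones. With only the 6 libraries compared, 4 members had positive (9.28%) and 3 negative values (7.98%). Under limma-voom 3 members had positive (9.98%) and 3 negative values (9.47%) at that level. With length and GC trends removed 2 members had positive (5.53%) and 0 negative values (2.97%). With the replicate block as well these counts were 3 (6.65%) and 0 (3.15%). Without carminic acid A they were 1 (2.56%) and 0 (4.29%). The groups did not overlap in 11 members (20.8% of all genes tested, in either direction), 7 with carminic acid above control and 4 with carminic acid below. The summed level was 3746, 3881 and 3874 CPM in carminic acid libraries A, B and C, which covers nearly the same range as in control. The large to small subunit ratio was 1.63, 1.63 and 1.62. Each of these also lay above every control library, C only narrowly (1.6183 against 1.6182 in control B).

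MRPL42, a large subunit protein without a bacterial counterpart, was the member at an unadjusted p under 0.05. It was at 55.7, 65.3 and 64.8 CPM in control libraries A, B and C and 51.5, 51.2 and 56.6 CPM in the carminic acid libraries. Carminic acid C overlapped control A. The log2 fold change was -0.22 (SE 0.10, 95% interval -0.44 to -0.0043, adjusted p = 0.717), and -0.09 after length and GC trends were removed. The other members with the smallest p among negative values were MRPL52 (-0.16, SE 0.10), MRPL19 (-0.14, SE 0.09), MRPS10 (-0.12, SE 0.08) and MRPL1 (-0.15, SE 0.11).

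On the positive side under carminic acid stood MRPL10 (log2 fold change 0.14, SE 0.08), MRPL28 (0.16, SE 0.10), MRPS2 (0.12, SE 0.08), MRPL37 (0.10, SE 0.07) and MRPL12 (0.17, SE 0.14). MRPL12 was at 55.1, 58.6 and 57.1 CPM under carminic acid, above all 3 control libraries, which had 49.7 to 51.7 CPM. The adjusted p was 0.746.

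The dyes were then compared with each other, at 10 µM carmine and 20 µM carminic acid. The carmine libraries are those of the first comparison, so the values are not independent of it. Log2 fold changes of carmine against carminic acid were above 0 in 70 of 77 members (51.1% of all genes tested), with a median of 0.12 beside 0.00 for all genes. No member passed an adjusted p of 0.05 in edgeR, which called 1 of 16017 genes (0.00624%). DESeq2 called 2 members, MRPL52 and MRPL42, among 79 genes in all (0.677% of 11670), and limma-voom called MRPL42 among 13 (0.0812% of 16017). At an unadjusted p under 0.05 there were 15 members, all with positive values (5.65% of all genes tested, and 3.25% had negative ones), and in 15 members every carmine library lay above every carminic acid library (7.09%). In 0 members did it lie below in the same way (6.01%). The 15 members with groups apart include the nearly empty MRPL45 (0.459 CPM). Without carmine A the median was 0.19 and 32 members had an unadjusted p under 0.05 (6.60% of all genes, with positive values). Without carmine C the median was 0.07, 54 members were above 0 and 4 members were called, among 685 genes called in all (4.21%). Then 18 members had positive values (11.9% of all genes) and 2 had negative values (10.3%) at an unadjusted p under 0.05. The count at an unadjusted p under 0.05 was 9 without carmine B (651 of 16277 genes with positive values) and 7 without carminic acid B (538 of 16254).

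MRPL52 had the smallest p between the dyes. It was at 20.7, 25.0 and 23.7 CPM under carmine and 15.9, 17.1 and 16.5 CPM under carminic acid. The groups were well apart, with control between them and overlapping carminic acid. The log2 fold change was 0.49 (SE 0.10, 95% interval 0.28 to 0.70) with an adjusted p of 0.229 in edgeR, 0.003 in DESeq2, 0.039 in edgeR after length and GC trends were removed (1 member and 0.0712% of all genes called), and 0.0135 without carmine C.

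MRPL42 was at 74.2, 77.9 and 59.3 CPM under carmine and 51.5, 51.2 and 56.6 CPM under carminic acid. All carmine libraries were above all carminic acid libraries, but carmine C only narrowly, and carmine overlapped control (55.7 to 65.3 CPM). The log2 fold change was 0.41 (SE 0.10, 95% interval 0.19 to 0.63). Its adjusted p was 0.300 in edgeR, 0.039 in DESeq2 and 0.0027 without carmine C. The only annotated transcript of MRPL42 that matched RefSeq is 15582 bases long, so no level per kilobase is given for it. The same transcript entered the members' median per kilobase, the GC correlations and the values after length and GC trends were removed.

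MRPS35, a small subunit protein without a bacterial counterpart, was at 123, 134 and 125 CPM under carmine, 106, 100 and 110 CPM under carminic acid and 102, 113 and 121 CPM in control. Carmine was above both other groups in all libraries. Against carminic acid the log2 fold change was 0.27 (SE 0.08, adjusted p = 0.389, and 0.033 without carmine C), and against control it was 0.18 (SE 0.08, adjusted p = 0.436). MRPL30 had 0.21 (SE 0.07, adjusted p = 0.439) and MRPL15, the counterpart of bacterial L15, 0.27 (SE 0.09, adjusted p = 0.439) between the dyes. MRPL19, the counterpart of bacterial L19, was the fourth member called without carmine C (0.32, adjusted p = 0.021), beside 0.22 with all libraries.

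The members with negative values between the dyes were near 0 for their error. MRPS2 had -0.06 (SE 0.08), MRPS24 -0.15 (SE 0.31, at 0.464 CPM), MRPS34 -0.02 (SE 0.10), PTCD3 -0.01 (SE 0.07) and MRPL9 -0.01 (SE 0.08). For MRPL10 the interval of the difference between the dyes was -0.15 to 0.18, and for MRPS27 -0.12 to 0.18.

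The members' values went along with the base composition of their transcripts. Across the 77 members, Spearman's rho between the log2 fold change and the GC content of the transcript was 0.78 for carminic acid against control, 0.43 for carmine against control and -0.29 for carmine against carminic acid. The points share libraries and depth and are not replicates, so no p is given. Over all 15453 tested genes with a known transcript the values were 0.47, 0.14 and -0.30. Under carminic acid, the 38 members with a GC content above the members' median of 48.9% had a median log2 fold change of 0.06, with 28 above 0. The other 39 had -0.08, with 8 above 0. Under carmine both parts had positive medians, 0.17 and 0.11.

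**Figure D4:**
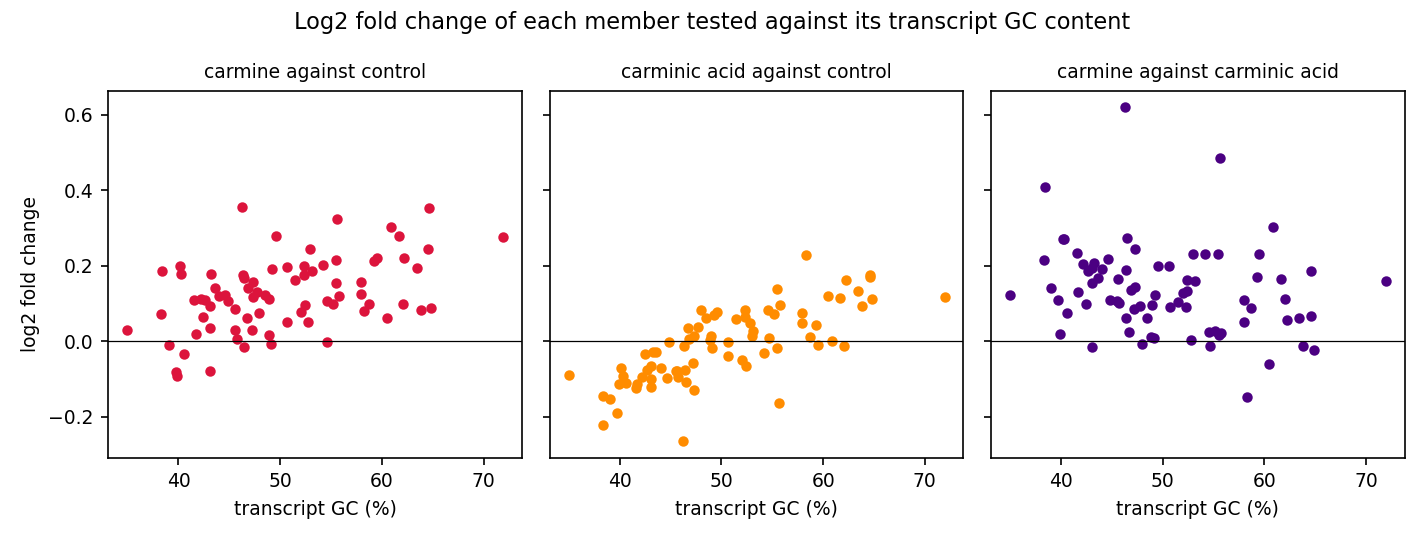
Log2 fold change of each of the 77 members tested against the GC content of its transcript in percent, for the 3 comparisons. Spearman's rho is 0.43, 0.78 and -0.29 from left to right; under carmine most points lie above 0 over the whole range of GC content.

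Libraries of 1 group also differed in how genes deviated with GC content, with Spearman's rho from -0.50 to 0.07 over the control libraries from -0.43 to 0.49 over the carmine libraries, where carmine C had the highest, and 0.09, 0.56 and 0.19 in carminic acid libraries A, B and C. Carminic acid B was the highest of the 9. The members' transcripts were shorter than those of all genes, with a median of 1197 against 2453 bases. After smooth trends with length and GC content were removed from each library, the median of the members was 0.10 under carmine (0.03 over all genes). Then 68 of 77 members lay above 0, beside 8964 of all 15451 genes. Under carminic acid the median was 0.02 (0.02 over all genes), with 49 of 77 members and 8994 of 15451 genes above 0. Between the dyes it was 0.08 (0.01), with 64 of 77 members and 8145 of 15451 genes above 0. What produced the GC and length trends was not tested.

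Other genes of mitochondrial translation were read from lists. The 3 mitoribosome proteins that go under other symbols had log2 fold changes under carmine of 0.40 (GADD45GIP1, SE 0.23), 0.20 (CHCHD1, SE 0.09) and 0.23 (AURKAIP1, SE 0.20). GADD45GIP1 was at 24.0, 24.5 and 24.2 CPM in control and 21.6, 28.0 and 46.0 CPM under carmine, with carmine C again far above the rest. Of 25 tested genes for mitoribosome assembly and rRNA modification, 22 were above 0 with a median of 0.06, and 0 passed the test. The 17 mitochondrial translation factors had a median of 0.06 with 12 above 0, and the 20 genes for mitochondrial aminoacyl-tRNA synthetases and amidotransferase subunits 0.03 with 14 above 0; 0 passed the test in either. These medians are beside 0.12 for the ribosomal proteins themselves, and the differences between lists were not tested.

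The RNA that these proteins assemble with had values below 0. The gene for the large subunit rRNA of mitochondria, RNR2, was at 4219, 5461 and 5782 CPM in control libraries A, B and C and 2976, 3369 and 2205 CPM under carmine. All carmine libraries lay below all control libraries, carmine C lowest. The log2 fold change was -0.85 (SE 0.19, adjusted p = 0.301), and for RNR1, the small subunit rRNA, -0.76 (SE 0.22, adjusted p = 0.380). Under carminic acid the values were -0.40 (SE 0.19) and -0.43 (SE 0.22). The summed level of the members divided by that of both rRNAs was 0.79, 0.64 and 0.61 in control libraries A, B and C, 1.16, 1.12 and 1.87 in the carmine libraries and 0.94, 1.08 and 0.73 in the carminic acid libraries. How the libraries were prepared, and so how much rRNA they keep, is not given in the sources used here.

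**Figure D5:**
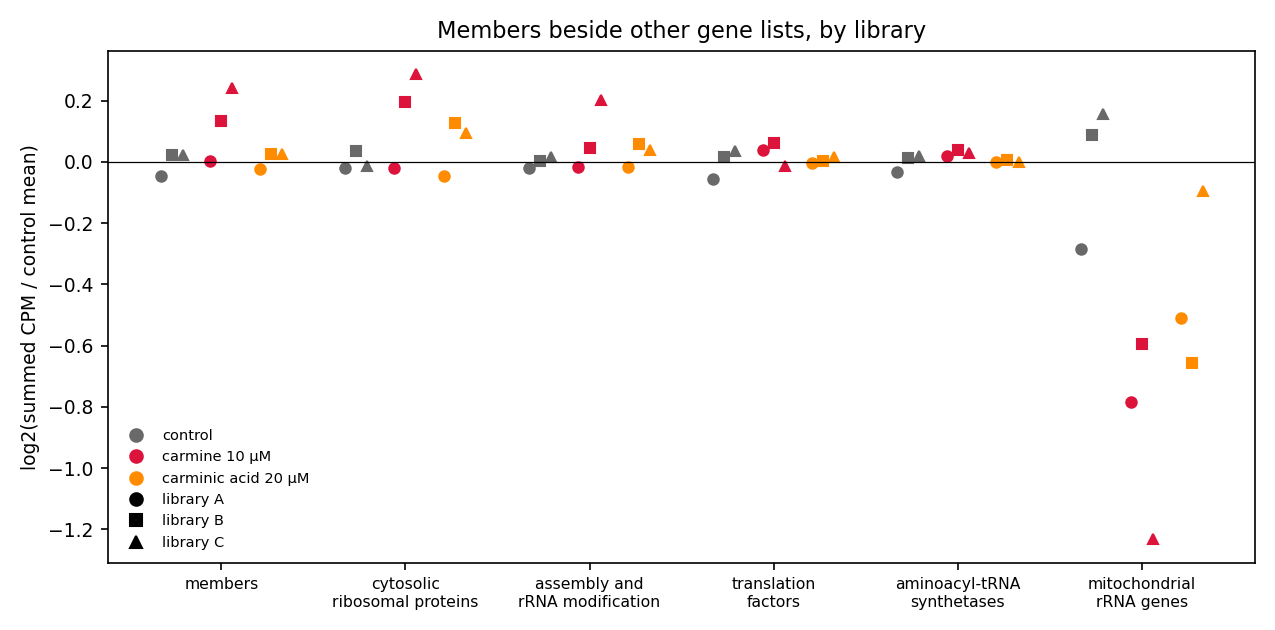
Summed level of 6 gene lists in each of the 9 libraries, as log2 of the ratio to the control mean. Colours give the groups and marker shapes the libraries A, B and C; the members and the cytosolic ribosomal proteins are highest in carmine C and the mitochondrial rRNA genes are lowest there.

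Cytosolic ribosomal proteins, which build the ribosomes outside mitochondria, had a median log2 fold change of 0.16 under carmine. Above 0 were 73 of 79 genes (51.7% of all genes tested). At an unadjusted p under 0.05 in edgeR, 20 had positive values (5.38%). With length and GC trends removed this count was 39 (13.2%), and 4 passed an adjusted p of 0.05 (1.69%). The summed level of the 79 genes was 73079, 75924 and 73382 CPM in control libraries A, B and C and 73085, 84843 and 90459 CPM under carmine. As with the members, carmine A was within the control range and C highest. The ratio of the members' sum to the cytosolic sum, as a percentage, was 5.04%, 5.10% and 5.27% in control, 5.23%, 4.93% and 4.97% under carmine and 5.22%, 4.80% and 4.89% under carminic acid, so this ratio overlapped between all groups.

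Total counts ran from 54871018 to 57581301 per library, of which the members held 0.375% to 0.436%. The mitochondrial chromosome held 1.94% to 2.51% of counts in control, 0.974% to 1.30% under carmine and 1.24% to 2.08% under carminic acid. Without the genes of that chromosome, the members had a median of 0.12 under carmine and 69 above 0. Of 13 enterocyte markers 12 were tested, and KRT20 was listed at 0 in all libraries. Their summed level was 6243 to 6465 CPM in control, 6232 to 6628 CPM under carmine and 6331 to 6760 CPM under carminic acid. Of 13 markers of fibroblasts, endothelial, immune and goblet cells 9 were tested, with sums of 441 to 519, 465 to 509 and 473 to 529 CPM in the same order. Averaged over the 9 libraries, MUC2, DCN and PTPRC were at or near 0 and CDH5, SPINK4 and CD3E below 1 CPM. Others of the 13 were present: CD68 at 337 CPM, COL1A1 at 117, TFF3 at 16.8, PECAM1 at 10.5 to 11.4 over the group means, PDGFRB at 5.69, COL3A1 at 4.04 and VWF at 1.03 CPM. Under carmine, 2 of these markers, both of goblet cells, had an unadjusted p under 0.05 in edgeR: TFF3 with a log2 fold change of 0.41 (SE 0.17, adjusted p = 0.436) and SPINK4 with -1.02 (SE 0.43, adjusted p = 0.435). In both genes carmine and control libraries overlapped, and their part in the members' values was not tested.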

How the data were processed

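Total RNA of 9 samples of Caco-2 cells was sequenced. The authors deposited raw counts per gene for each library, with NCBI Gene IDs. Per the file headers the aligner was HISAT2, and the submitters' processing notes name FastQC, HISAT, featureCounts and hg38 with no version. The sources used here do not give the strand setting, the annotation release, the library kit or what was done with reads mapping to several places.

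Symbols came from RefSeq's gene table (GRCh38.p14), and transcript lengths and GC content from GENCODE transcripts that match RefSeq mRNAs. The fit used edgeR 4.0.16 in R 4.3.3. Its filterByExpr by group left 16017 genes, libraries were scaled by TMM, and all 9 libraries entered 1 robust quasi-likelihood fit with 3 two-sided contrasts. Adjusted p-values are Benjamini-Hochberg values over every gene tested in a contrast, with a threshold of 0.05, and intervals are 95% intervals. The fit was tested on simulated counts that held no length or GC trends. That test therefore cannot show how the fit performs with such trends. Alternatives used DESeq2 1.42.0, limma 3.58.1 and mgcv 1.9.3. The members and lists were chosen with earlier results of these data known. The named genes were, per contrast, the 5 members with the smallest p in each direction, the 3 highest and 3 lowest per kilobase, members with a defined role, and those not tested. MRPS36 was not in the reference table under that symbol and was not used here. The labels do not say whether the replicate letters pair samples, and the main fit did not pair them. Correlations of the deviations of same-letter libraries ran from -0.149 to 0.0952, with 0 of 9 over 0.1. Those of different-letter libraries ran from -0.162 to 0.156, with 4 of 18 over 0.1. With 3 libraries per group these values cannot show whether samples were paired. The chi-square per degree of freedom between libraries of a group was at least 9.51, so none was counted as a copy.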

Additional observations from a re-analysis of the deposited data

How the results depend on the processing

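Under 21 alternatives (other scaling, filters, tools, the letter block, trends removed, each library left out), the members' median log2 fold change stayed positive for carmine against control (0.075 to 0.18) and for carmine against carminic acid (0.065 to 0.19). For carminic acid against control it lay between -0.036 and 0.025, with 0.024 after length and GC trends were removed and 0.025 with the replicate block as well, and between -0.029 and 0.0037 with 1 library left out. The members called for carmine against control were 0 in all alternatives except the replicate block with length and GC trends removed, which called 6 (553 genes in all, 3.58%). Without the trends removed, the replicate block called 0 members. Between the dyes, 2 members were called by DESeq2 (0.677% of 11670 genes) and 1 by limma-voom with quality weights (0.0812% of all genes). There was 1 with length and GC trends removed (0.0712%) and 2 with those trends removed and the replicate block (0.110%). With 1 library left out there were 0 to 4 (4 without carmine C, 4.21%). Over all genes, edgeR called 0 for carmine, 0 for carminic acid and 1 between the dyes, and the alternatives called 0 to 553, 0 to 49 and 0 to 685. The cause of these differences was not tested.

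Small values changed sign. For carmine against control, with 1 library left out, MRPS31 ran from -0.25 to 0.080, MRPL33 from -0.12 to 0.042, MRPS30 from -0.042 to 0.014, MRPL41 from -0.096 to 0.46 and MRPS34 from -0.028 to 0.19. With limma-voom MRPS31 was 0.044. With length and GC trends removed PTCD3 was 0.011 and MRPL33 0.052, and with the replicate block too 0.010 and 0.049. Between the dyes, with 1 library left out, MRPS34 ran from -0.13 to 0.082, PTCD3 from -0.052 to 0.051 and MRPL9 from -0.045 to 0.042. PTCD3 was 0.029 with limma-voom, 0.013 with trends removed and 0.012 with the replicate block too. Low counts limit MRPL45 and MRPS24, and MRPL23 and MRPS18B could not be tested.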
